A study of Homo sapiens with 6 samples.

Results

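Described here are 9 genes that write, maintain, read and remove cytosine methylation in DNA: the methyltransferase genes DNMT1, DNMT3A and DNMT3B, the UHRF genes UHRF1 and UHRF2, the dioxygenase genes TET1, TET2 and TET3, and the glycosylase gene TDG. They were taken by name from a count table of 58735 genes, and all 9 passed the filter on low counts that left 17299 genes for testing. The libraries came from Ishikawa cells, an established human endometrial cancer cell line, collected 48 hours after transfection by lipofection: 3 libraries received a control siRNA (siNC) and 3 an siRNA against TCF19 (siTCF19). All were grown in DMEM with fetal bovine serum, and how many siRNA sequences targeted TCF19 was not stated in the labels. TCF19 encodes a nuclear protein with a PHD finger, and the comparison asks how transcripts differ when it is knocked down. The labels do not state whether the libraries within each group derive from independent cultures. If they do not, the spread behind each p-value is technical.

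Methylation of cytosine in CpG dinucleotides is laid down by DNMT3A and DNMT3B and copied onto the new strand after replication by DNMT1. UHRF1 binds hemimethylated CpG behind the replication fork and recruits DNMT1 there, while its paralogue UHRF2 binds hydroxymethylated cytosine and does not replace UHRF1 in maintenance. The TET enzymes oxidise 5-methylcytosine stepwise, and TDG excises the most oxidised forms, after which base excision repair restores an unmethylated cytosine. DNMT1 and UHRF1 are known as genes of dividing cells, driven in part by E2F factors, and loss of progesterone receptor and changes of methylation at tumour suppressor promoters are known features of endometrial cancer. RNA was measured here, and methylation of DNA was not.

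The promoter stretches of DNMT1 and UHRF1 are shown because both genes were lower in siTCF19, in almost the same proportion, and both carry a match to the E2F consensus. RefSeq windows on GRCh38.p14, each running from 250 bases before to 50 bases after a transcript start, matched all 9 genes with 20 windows in all. The E2F search used 4 words, TTTCCCGC, TTTCGCGC, TTTGCCGC and TTTGGCGC, on both strands. Any of these was found in 3 of the 20 windows, 1 of DNMT1 and 2 of UHRF1, and in 3.3% of all 34943 windows of this length. Windows of the same gene can overlap, so the 20 are not independent. Shown are the 120 bases before and 30 bases after the start, 5′ to 3′ on the strand of the gene, with the matched word in capitals, which reads as the reverse complement of TTTCGCGC in DNMT1 and of TTTCCCGC in UHRF1.
DNMT1 (chr19:10194924-10195073, minus strand): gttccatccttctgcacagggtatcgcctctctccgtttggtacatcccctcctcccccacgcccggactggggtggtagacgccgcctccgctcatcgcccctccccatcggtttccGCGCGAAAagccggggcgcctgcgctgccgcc
UHRF1 (chr19:4909381-4909530, plus strand): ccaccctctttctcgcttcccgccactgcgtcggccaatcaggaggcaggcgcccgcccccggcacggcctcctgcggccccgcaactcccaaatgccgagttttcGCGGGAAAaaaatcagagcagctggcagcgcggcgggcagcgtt
The DNMT1 word begins 2 bases before the start and the UHRF1 word 14 bases before it. A second UHRF1 window, with its start further downstream, holds TTTCGCGC from 160 bases before that start. The windows of the other 7 genes hold none of the 4 words, which says only that these letters are not in these windows. DNMT3A and TDG, among these 7, were lower in siTCF19 as well. The part of the E2F words in any change was not tested. A window was counted as CpG-rich at a GC content of at least 50% and an observed to expected CpG ratio of at least 0.6. That held for 13 of the 20 windows and for 46.8% of all windows. The single DNMT3B window, with 3 CpG, and the 3 TET1 windows, with 6 to 11 CpG, were not CpG-rich, against a median of 14 CpG over all windows. The DNMT3B window (bases 32779602 to 32779901) lies inside the gene, whose annotated start is at 32762385. The sequence at that start was not examined. The TET1 windows that begin at 68600018 and 68600224 also lie inside the gene, which is annotated from 68560656. So do the DNMT1 window and all UHRF1 windows, relative to the annotated extent of those genes. The 3 UHRF1 windows held 36 to 46 CpG.

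Library totals ran from 14680022 to 16244705 counts, and the first principal component held 58.3% of the variance of log2 CPM. TCF19 was counted 2572, 2905 and 2756 times in siNC and 675, 529 and 606 times in siTCF19. It was 4.59-fold lower (95% interval 4.22 to 5; edgeR adjusted p = 6.15e-29). Of 5 epithelial markers all were tested, with summed levels of 2013 to 2105 CPM in siNC and 1877 to 1957 CPM in siTCF19. Of these CDH1 (0.61) and KRT19 (0.44) rose in log2 units, KRT8 (-0.40) and KRT18 (-0.43) fell, and EPCAM (-0.04) was not called. PAX8, a transcription factor of Müllerian epithelium, stood at 861 ± 20 and 847 ± 28.3 CPM (SD, n = 3 per group), and MSX1, the other gland marker tested, fell from 463 to 340 CPM. The hormone receptor genes ESR1 and PGR, which define much of endometrial epithelium, had 0 to 4 and 1 to 4 counts per library. The 5 immune markers summed to at most 4.17 CPM and the stromal marker DCN was at 0, while the collagen genes COL1A1 (17.9 CPM in siNC) rose to 26.7 CPM and COL1A2 (161 CPM) fell to 101 CPM. The endothelial markers summed to 6.56 to 6.99 CPM in siNC and 13.8 to 17.3 CPM in siTCF19. VWF rose from 5.13 to 15.5 CPM, CDH5 fell from 0.978 to 0.259 CPM, PECAM1, which did not pass the filter, had 0.627 and 0.108 CPM, and KDR had 0 to 1 counts. The part of these marker changes in the other results was not tested.

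Of the 9 genes, 4 fell and 3 rose in siTCF19, and DNMT3B and TET1 were not called (edgeR quasi-likelihood test, Benjamini-Hochberg adjusted p under 0.05 over all tested genes). DNMT1, DNMT3A, UHRF1 and TDG were lower, and UHRF2, TET2 and TET3 were higher. Across all genes 41.5% of tested genes were called, 20.7% higher and 20.8% lower, so calls were common throughout. With library-size-only scaling, calls over all genes were 4512 higher and 2842 lower, against 3586 and 3597. Among tested genes within the range of mean CPM of these 9, 56.3% were called. The groups did not overlap for 7 of the 9 genes, 4 with siTCF19 below and 3 with siTCF19 above, where 49.2% of tested genes showed no overlap, 24.9% below and 24.4% above. All 9 differences were small. The median size of the log2 fold change was 0.17 over the 9 genes, against 0.24 over all tested genes and 0.39 over called genes, and 55.5% of called genes changed by more than DNMT3A, the gene of the 9 that changed most.

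**Figure D1:**
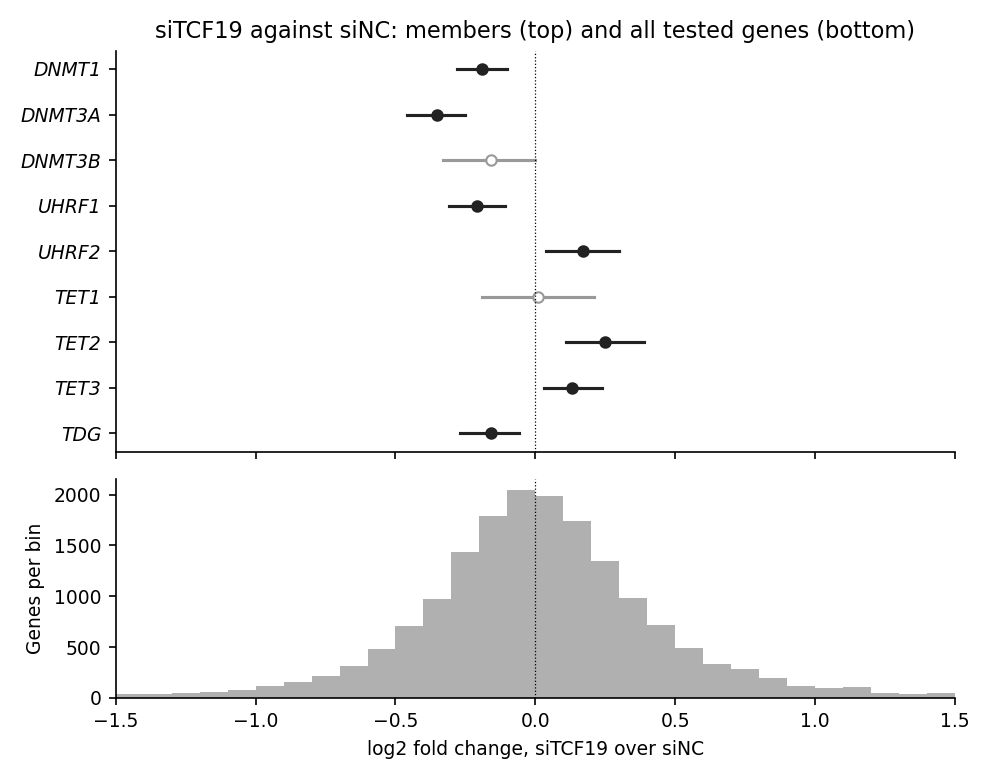
Log2 fold change of the 9 genes in siTCF19 over siNC (top, points with 95% intervals, open where not called) above the distribution of the fold change over 17299 tested genes (bottom, genes per bin of 0.1, with 1.5 as the limit of the axis on either side). DNMT3A, at -0.35, lies lowest of the 9 and TET2, at 0.25, highest, and all 9 sit within the central mass of the genes.

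Per length, DNMT1 was the most abundant of the 9 transcripts and TET1 the least. In siNC the order of mean FPKM (read counts scaled to gene length and library size) was DNMT1 (44.3), UHRF1 (29.3), TDG (27.1), TET3 (12.7), DNMT3A (11.7), DNMT3B (7.12), UHRF2 (4.70), TET2 (3.15) and TET1 (2.38). Each gene's 3 siNC values lay apart from those of the next gene in this order. The length in FPKM is that of a gene's annotated exons, not of the transcripts expressed. The order of genes with close values depends on it, and the spread between libraries does not cover this. The order was the same in siTCF19, where UHRF1 (24.4 to 26.2 FPKM) and TDG (23.1 to 25.0 FPKM) overlapped. On this scale the maintenance pair and TDG led the 9 transcripts in both groups.

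**Figure D2:**
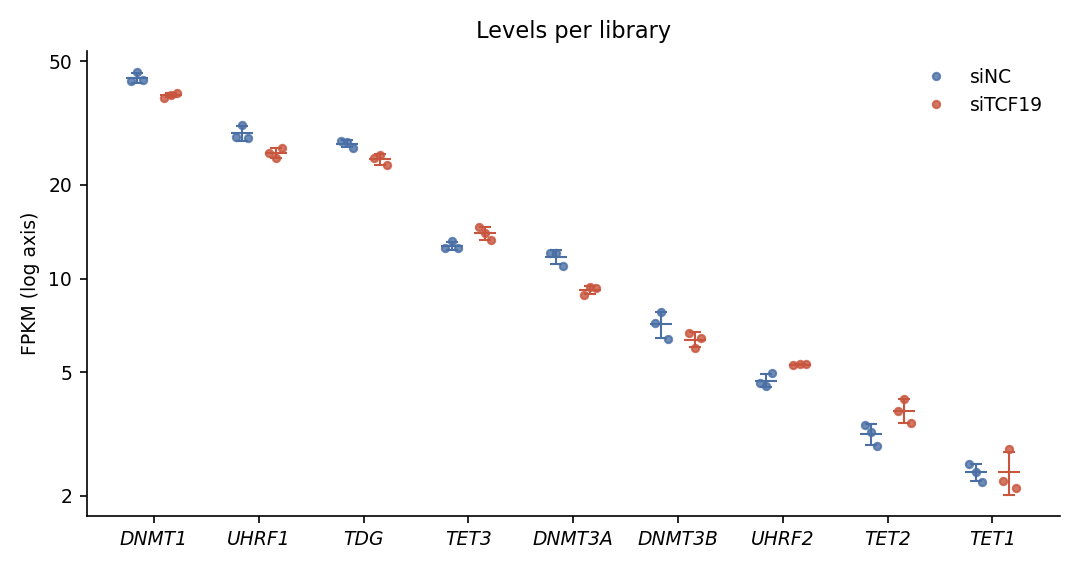
FPKM of the 9 genes in each library (points, log axis) with the mean and SD of the 3 siNC and 3 siTCF19 libraries. The 7 called genes show no overlap between the groups, while the points of DNMT3B and TET1 overlap.

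DNMT1 and DNMT3A, the maintenance enzyme and the more abundant de novo enzyme, were both lower in siTCF19. DNMT1 (ENSG00000130816, hg38 chromosome 19, 10133345 to 10231286, minus strand) had 43.1, 46.2 and 43.6 FPKM in siNC and 38.2, 38.9 and 39.4 FPKM in siTCF19. Its highest siTCF19 library lay below its lowest siNC library. DNMT1 fell 1.14-fold (95% interval 1.07 to 1.21), or -0.19 ± 0.04 in log2 units (SE; edgeR adjusted p = 0.00046), and it was called under every one of the 17 alternatives, with values of -0.21 to -0.13. The value nearest 0 came with library-size-only scaling, under which the median over all genes was 0.06 higher. DNMT1 shares 83 exonic bases with S1PR2 on the same strand, which had 115 to 206 counts per library, against 5784 to 7163 for DNMT1.

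DNMT3A (ENSG00000119772, chromosome 2, 25227855 to 25342590, minus strand), which sets methylation patterns on unmethylated DNA, had 12.1, 12.1 and 11 FPKM in siNC. In siTCF19 it had 8.87, 9.36 and 9.33 FPKM, so that all siTCF19 libraries lay below all siNC libraries. DNMT3A fell 1.28-fold (95% interval 1.19 to 1.37), or -0.35 ± 0.05 in log2 units (SE; edgeR adjusted p = 4.2e-07). Its values under the alternatives ran from -0.39 to -0.29, all called. The size of this change exceeded that of 66.1% of tested genes.

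DNMT3B (ENSG00000088305, chromosome 20, 32762385 to 32809356, plus strand), the second de novo enzyme, had 7.19, 7.78 and 6.38 FPKM in siNC and 6.68, 5.98 and 6.43 FPKM in siTCF19. The groups overlapped, since the siNC replicate 3 library lay below siTCF19 replicates 1 and 3. Its log2 fold change of -0.16 ± 0.08 (SE) was not called (edgeR adjusted p = 0.114), and its 95% interval, -0.33 to 0.00, includes a fall as large as that of DNMT1 and no change. Without siNC replicate 3 the value was -0.23 and was called (edgeR adjusted p = 0.0398). DNMT3L, the catalytically inactive cofactor of the de novo enzymes, had 0 counts in all 6 libraries.

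UHRF1 and UHRF2 moved in opposite directions. UHRF1 (ENSG00000276043, chromosome 19, 4903080 to 4962154, plus strand) had 28.5, 31.2 and 28.4 FPKM in siNC and 25.4, 24.4 and 26.2 FPKM in siTCF19, with no overlap. UHRF1 fell 1.16-fold (95% interval 1.08 to 1.24), or -0.21 ± 0.05 in log2 units (SE; edgeR adjusted p = 0.000866), and was called under all 17 alternatives. UHRF2 (ENSG00000147854, chromosome 9, 6413151 to 6507054, plus strand) had 4.62, 4.51 and 4.96 FPKM in siNC. In siTCF19 it had 5.26, 5.31 and 5.29 FPKM, with the smallest SD (0.027) of any of the 9 genes in either group. UHRF2 rose 1.12-fold (95% interval 1.03 to 1.23), or 0.17 ± 0.07 in log2 units (SE; edgeR adjusted p = 0.0346). That call rested on the threshold: DESeq2 did not make it (adjusted p = 0.0573), nor did edgeR without siNC replicate 1 (0.099) or 2 (0.133) or without siTCF19 replicate 1 (0.0615), 2 (0.052) or 3 (0.051). A processed pseudogene of UHRF2, UHRF2P1, had 1 to 6 counts per library.

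TET2 and TET3 were higher in siTCF19 and TET1 was not called. TET2 (ENSG00000168769, chromosome 4, 105145875 to 105279816, plus strand), which lacks the CXXC domain that its family members use to bind DNA, had 3.37, 3.20 and 2.89 FPKM in siNC and 3.74, 4.09 and 3.43 FPKM in siTCF19. The lowest siTCF19 value lay just above the highest siNC value. TET2 rose 1.19-fold (95% interval 1.08 to 1.31), or 0.25 ± 0.07 in log2 units (SE; edgeR adjusted p = 0.00275), and kept its call in each run with 1 library left out, at 0.19 to 0.32. The call was not made by limma-trend on log2(FPKM + 1) (0.19, adjusted p = 0.109), a scale that understates the change of low genes, or on log2(FPKM + 0.1) (0.24, adjusted p = 0.106).

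TET3 (ENSG00000187605, chromosome 2, 73986404 to 74108176, plus strand), the most abundant of the dioxygenase transcripts, had 12.5, 13.2 and 12.5 FPKM in siNC and 14.6, 14.0 and 13.3 FPKM in siTCF19. The groups were apart by a narrow margin. TET3 rose 1.10-fold (95% interval 1.02 to 1.18), or 0.13 ± 0.05 in log2 units (SE; edgeR adjusted p = 0.0263). The call was not made without siNC replicate 1 (adjusted p = 0.0967), siNC replicate 3 (0.103) or siTCF19 replicate 1 (0.136), and on the log2(FPKM + 1) scale the adjusted p was 0.0843. TET1 (ENSG00000138336, chromosome 10, 68560656 to 68694482, plus strand) had 2.53, 2.39 and 2.22 FPKM in siNC and 2.24, 2.82 and 2.12 FPKM in siTCF19, where replicate 2 was the highest of all 6 libraries. Its log2 fold change was 0.01 ± 0.10 (SE; edgeR adjusted p = 0.966), with a 95% interval of -0.19 to 0.21 that includes changes as large as that of TET3. Without siTCF19 replicate 2 the value was -0.12, again not called (adjusted p = 0.379).

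TDG (ENSG00000139372, chromosome 12, 103965804 to 103988874, plus strand), the glycosylase that follows the TET enzymes, was lower rather than higher. It had 27.6, 27.4 and 26.3 FPKM in siNC and 24.4, 25.0 and 23.1 FPKM in siTCF19, with no overlap. TDG fell 1.12-fold (95% interval 1.04 to 1.2), or -0.16 ± 0.05 in log2 units (SE; edgeR adjusted p = 0.00858). The call was lost when libraries were scaled by total count alone (-0.10, adjusted p = 0.0955) or without siTCF19 replicate 3 (-0.13, adjusted p = 0.0588). The processed pseudogene TDGP1, which can share reads with TDG, had 13 to 27 counts per library against 1769 to 2129 for TDG.

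The summed transcripts of the methyltransferases and of the TET enzymes moved apart. The DNMT1, DNMT3A and DNMT3B FPKM summed to 62.4, 66.1 and 61.0 in siNC and to 53.7, 54.2 and 55.2 in siTCF19. The TET1, TET2 and TET3 FPKM summed to 18.4, 18.8 and 17.6 in siNC and to 20.6, 21.0 and 18.9 in siTCF19. The TET sums were apart by a narrow margin, 18.9 against 18.8. Most of each TET sum was TET3, whose call several alternatives did not make. The ratio of these sums was 3.46 ± 0.0678 in siNC and 2.71 ± 0.192 in siTCF19 (SD, n = 3 per group), and the groups did not overlap. No test was made on such sums and ratios, because 3 libraries against 3 cannot give an exact p below 0.10 and the genes were chosen with results known.

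The make-up of the families was read as shares and ratios of FPKM, whose sizes depend on the exon lengths annotated for each gene. DNMT1 held 70.2% ± 1.18 of the summed methyltransferase FPKM in siNC and 71.4% ± 0.337 in siTCF19, and these groups overlapped. The share of DNMT3A went from 18.6% ± 0.650 to 16.9% ± 0.369 without overlap, and that of DNMT3B was 11.2% ± 0.703 and 11.7% ± 0.705, with overlap. TET3 held 69.7% ± 1.58 and 69.5% ± 2.16 of the summed TET FPKM, and the shares of TET1 and TET2 also overlapped between the groups. The ratio of DNMT1 to UHRF1 was 1.51 ± 0.0273 in siNC and 1.53 ± 0.0521 in siTCF19, so this maintenance pair kept its proportion within the spread of the libraries. The ratio of UHRF1 to UHRF2 was 6.16, 6.91 and 5.72 in siNC and 4.84, 4.60 and 4.94 in siTCF19, with no overlap. That of TDG to the TET sum was 1.48 ± 0.0189 in siNC and 1.2 ± 0.0201 in siTCF19, also without overlap.

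**Figure D3:**
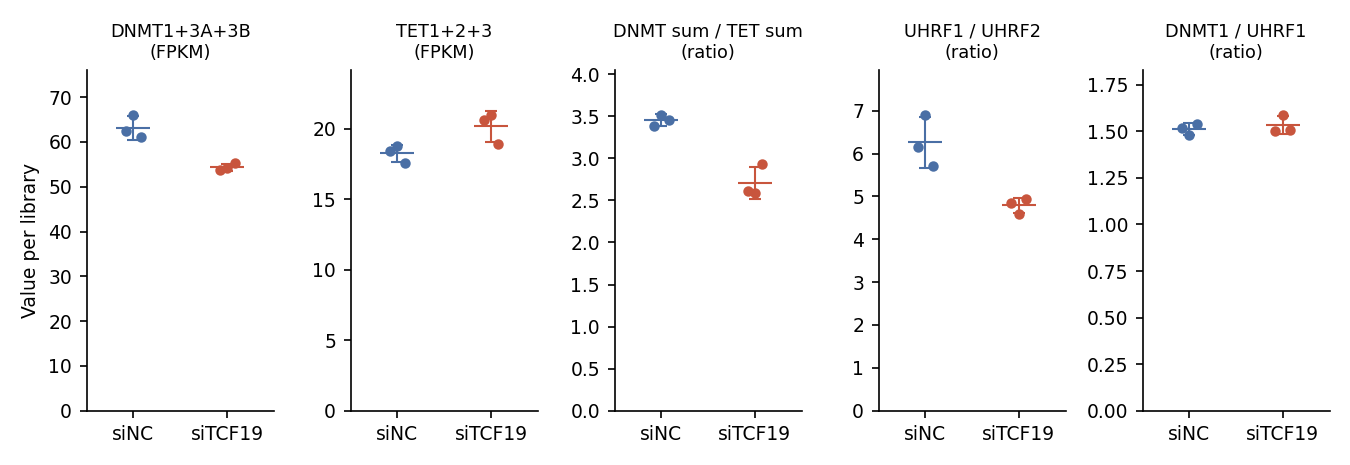
Summed FPKM of the methyltransferases and of the TET enzymes, and ratios between FPKM values, in each library (points) with the mean and SD of the 3 libraries per group, on axes from 0. The sums move in opposite directions, with the TET sums apart by a narrow margin. The ratios of DNMT to TET and of UHRF1 to UHRF2 are lower in siTCF19, and the ratio of DNMT1 to UHRF1 overlaps.

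Genes that act beside the methylation machinery were read from 8 lists, and each is given by its counts and its median log2 fold change, beside 0.00 for all tested genes. The partners and regulators of the methyltransferases were mostly lower: of 14 genes 11 were tested, 6 fell, 1 rose and 4 were not called (median -0.21). TRIM28, the KRAB zinc finger corepressor that keeps methylation at imprinted loci and retroelements, fell from 822 ± 31.1 to 582 ± 25.0 CPM (SD, n = 3 per group). SETDB1, the histone methyltransferase that TRIM28 recruits, fell by 0.32 on the log2 scale, and PCNA, the replication clamp that DNMT1 binds, fell by 0.21. CDCA7L was the one gene that rose (0.26, edgeR adjusted p = 0.000293), while its paralogue CDCA7, which activates the remodeller HELLS, fell by 0.25 on the log2 scale. HELLS itself was at 0.05 and the UHRF1 deubiquitinase gene USP7 at -0.02, neither called.

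Genes that supply the methyl donor were mostly lower. Of 14 genes 13 were tested, 8 fell, 2 rose and 3 were not called (median -0.21). MAT2A, which makes S-adenosylmethionine, fell from 290 ± 3.79 to 226 ± 5.31 CPM, and AHCY, which clears the inhibitory product S-adenosylhomocysteine, from 292 ± 16.9 to 202 ± 4.36 CPM (SD, n = 3 per group). The mitochondrial one-carbon enzyme genes SHMT2 (-0.98, edgeR adjusted p = 3.1e-21) and MTHFD2 (-0.89, edgeR adjusted p = 2.12e-18) changed most in this list. AHCYL2 rose (0.36).

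The genes around oxidation and removal of 5-methylcytosine went both ways. Of 13 TET cofactor and partner genes, 7 fell, 1 rose and 5 were not called (median -0.13). IDH1, which makes the 2-oxoglutarate that TET enzymes consume, fell from 236 ± 9.37 to 182 ± 7.83 CPM (SD, n = 3 per group). The succinate dehydrogenase subunit gene SDHB (-0.24) and OGT (-0.18), a glycosyltransferase bound by TET proteins, also fell, and IDH3G rose (0.26). Of 14 base excision and demethylation genes 13 were tested, 4 rose, 5 fell and 4 were not called (median 0.12). The repair genes PARP1 (-0.46), UNG (-0.57) and APEX1 (-0.37), whose product cuts the abasic site that TDG leaves, fell. GADD45A (0.59), GADD45G (1.14), the glycosylase gene SMUG1 (0.29) and XRCC1 (0.18) rose, the last a call that DESeq2 did not make. GADD45G stood at 1.17 ± 0.358 and 2.60 ± 0.884 CPM, low levels beside a floor of 3 counts at 0.19 to 0.206 CPM.

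Readers of methylated DNA showed no common direction. Of 8 methyl-CpG readers, 2 rose, 2 fell and 4 were not called (median -0.03). ZBTB4, a zinc finger reader, had 61.7 ± 3.58 CPM in siNC and rose to 87.8 ± 1.96 CPM in siTCF19 (SD, n = 3 libraries each), and MBD1 rose by 0.22 in log2 units. ZBTB33, known as Kaiso, fell by 0.22 on the log2 scale. The calls of MBD1 and ZBTB33 were lost under 4 and 7 of the 17 alternatives.

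S-phase genes, among which DNMT1 and UHRF1 are usually found, were lower in part. Of 20 genes 10 fell, 4 rose and 6 were not called (median -0.13), and their summed level was 3239 to 3388 CPM in siNC and 2947 to 3049 CPM in siTCF19. All 6 MCM helicase genes fell, with log2 fold changes of -0.52 to -0.25, MCM7 going from 372 ± 16.5 CPM in siNC to 260 ± 11.4 CPM in siTCF19 (SD, n = 3 libraries each), and TYMS fell by 0.55 on the log2 scale. The G1/S genes E2F1 (0.28), CCNE1 (0.45) and CCNE2 (0.43) rose. The part of this list in the lower values of DNMT1 and UHRF1 was not tested. In bulk RNA, fewer cells in S phase and less RNA per cell cannot be told apart.

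**Figure D4:**
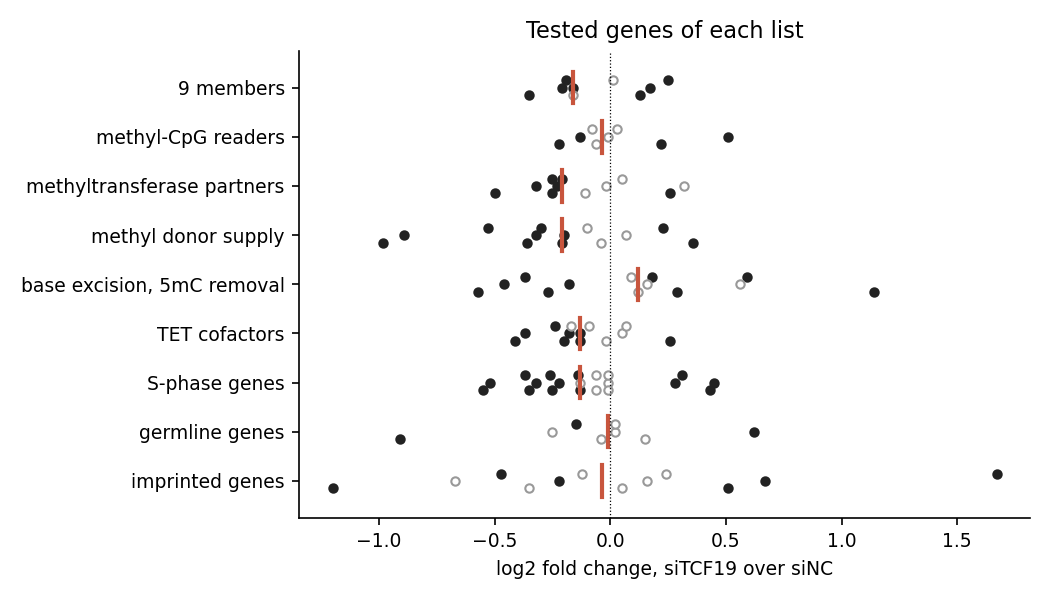
Log2 fold change in siTCF19 over siNC of the 9 genes and of the tested genes of the 8 lists (points, filled where called and open where not), with the median of each in red. The partner and methyl donor lists have medians of -0.21, and the reader, germline and imprinted lists have medians between -0.03 and -0.01 with members far on both sides.

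Genes whose silence in most tissues depends on DNA methylation were not generally higher. Of 17 germline genes 8 were tested, 1 rose, 2 fell and 5 were not called (median -0.01), and 5 genes (DAZL, MAEL, CTAG1B, GAGE2A and BRDT) had 0 counts in all libraries. Several cancer-testis genes were already expressed in siNC, among them MAGEC1 (127 ± 4.12 CPM) and MAGEB2 (78.1 ± 5.02 CPM; SD, n = 3). MAGEB2 fell by 0.91 on the log2 scale (edgeR adjusted p = 3.05e-15) and MAGEC1 by 0.15, while TDRD1, a germline tudor gene, rose from 2.77 ± 0.0923 to 4.26 ± 0.425 CPM. The MAGEC1 call was lost under 4 alternatives and the TDRD1 call under 2. MAGE genes have close copies, so their values are uncertain.

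The genes listed as imprinted, a class in which expression from 1 parental allele can vary with tissue, also moved both ways. Of 20 genes 12 were tested, 3 rose, 3 fell and 6 were not called (median -0.03), and IGF2, MEG3, DLK1, NDN, MAGEL2 and ZIM2 had 0 counts in all libraries. GRB10, an adaptor that restrains insulin signalling, fell from 120 ± 3.68 to 52.2 ± 2.69 CPM, and MEST fell by 0.47 on the log2 scale. IGF2R, the receptor that clears IGF2, rose from 368 ± 8.16 to 585 ± 16.2 CPM, and DIRAS3, a maternally imprinted RAS-like gene, from 2.30 ± 0.531 to 7.31 ± 1.40 CPM (SD, n = 3 per group). Allele usage cannot be read from gene counts.

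The transcripts most like each called gene were taken as those with the highest Pearson r of log2 CPM over the 6 libraries among the 10961 protein-coding genes that averaged 5 CPM or more. The points share libraries and the group difference, so this is a description. DNMT1 was most like MLLT10 (r = 0.998) and RAB8A (0.996), DNMT3A most like DDX10 (0.998) and IK (0.997), UHRF1 most like CHMP1A (0.998) and SETD1A (0.997), and TDG most like BAZ1B (0.995) and NMD3 (0.994). UHRF2 was most like FILIP1 (0.998) and PPFIA1 (0.996), TET2 most like SPIN4 (r of 1 after rounding) and ZNF181 (0.994), and TET3 most like POGK (0.985) and TNRC6B (0.985). An r of at least 0.95 was reached by 7.73% of genes for DNMT3A, 5.94% for DNMT1, 4.35% for UHRF1 and 2.03% for TDG. The share was 0.976% for UHRF2, 0.748% for TET2 and 0.547% for TET3.

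**Figure D5:**
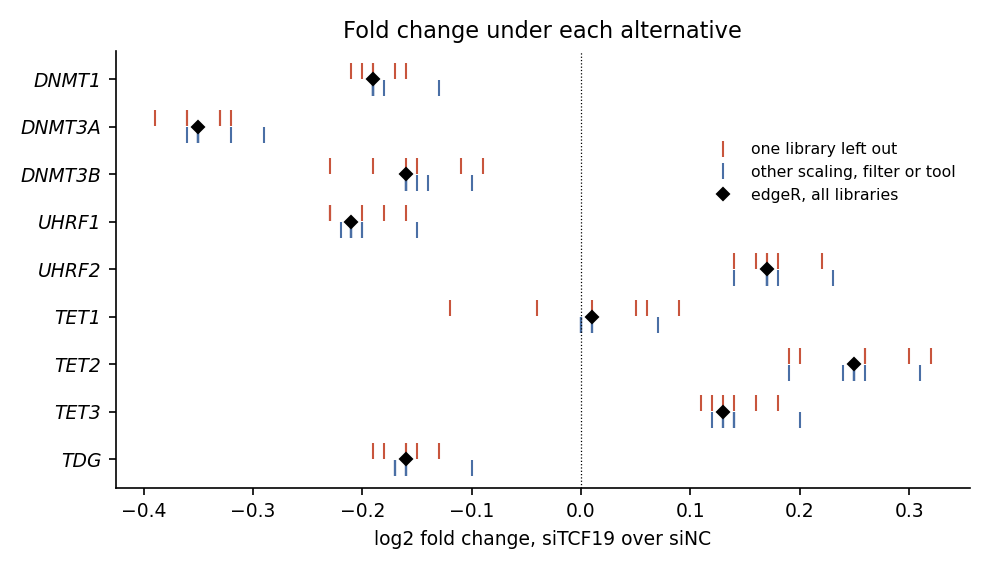
Log2 fold change of each gene with all libraries in edgeR (diamonds), with 1 library left out (red ticks) and with other scalings, filters, tools or the replicate number as a term (blue ticks). DNMT1, DNMT3A, DNMT3B, UHRF1 and TDG lie below 0 and UHRF2, TET2 and TET3 above 0 at every tick, and TET1 lies on both sides.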

How the data were processed

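RNA-seq of 6 Ishikawa libraries was analysed. The authors deposited whole-number counts and FPKM values per gene and library, per the file headers. Alignment with HISAT2 2.0.5 and counting with featureCounts 1.5.0-p3 on hg38 are given per the submitters' processing notes, while strand setting and multi-mapping reads are not described there. The authors' FPKM equalled count over gene length and 1 library size (0.974 to 1.034 times the total), so its scaling differs from that of the tests. The deposited table also holds a normalized mean signal, a log2 fold change and p-values of the authors' comparison, per the file headers, which were not used for any result here. Identifiers, starts and ends of all 58735 genes equalled GENCODE release 29.

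Counts were filtered with filterByExpr, scaled by TMM and tested with edgeR 4.0.16 (glmQLFit, glmQLFTest; R 4.3.3) over 17299 genes with the group as the only term. Intervals are 95% and cover the spread between libraries, and a floor of 3 counts covers counting error only. CPM values use TMM-scaled library sizes. Alternatives were scaling by RLE, by the upper quartile or by library size only, no filter, at least 1 CPM in 3 libraries, DESeq2 1.42.0, limma 3.58.1 (voom, and trend on log2 FPKM with a pseudocount of 1 or 0.1), the replicate number as a block, a threshold of 0.01 and leaving out single libraries. The edgeR step was also run on simulated data with far fewer changed genes than were called here, and no result rests on that run. The members, lists and rules were chosen with earlier results of these data known. Named were TCF19, the 9 genes, up to 4 called genes per list by lowest p with those called against the list's majority, and the 2 most alike profiles per called gene. Some list genes that the rule selects are not reported here. CDCA7, HELLS and USP7 were named after their values were seen, as were the low markers and the genes at 0.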

Additional observations from a re-analysis of the deposited data

How the results depend on the processing

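Over 17 alternatives, DNMT1, DNMT3A and UHRF1 kept direction and call. TET1, not called in any, changed sign without siNC replicate 3 (-0.04), without siTCF19 replicate 2 (-0.12), with limma-voom (-0.00) and with limma-trend at either pseudocount (-0.00), and ran from -0.12 to 0.09 with 1 library left out. The number of the 9 genes called higher, 3, was 1 with the replicate block, 0 with limma-trend on log2(FPKM + 1) and 0 on log2(FPKM + 0.1), and 1 at an adjusted p under 0.01, and it ran from 1 to 2 with 1 library left out. The cause was not tested. The number called lower, 4, ran from 3 to 5. With the replicate number as a block, UHRF2 had an adjusted p of 0.0546 and TET3 of 0.0539 in edgeR. Same-numbered libraries did not deviate together (correlations of 0.0086, -0.0241 and 0.021 over genes). No shared effect of the number was thus seen, but this cannot show that the samples were not handled as pairs. Over all tested genes, calls ran from 2696 to 4512 higher and from 2763 to 3587 lower, against 3586 and 3597. MBD1, ZBTB33, XRCC1, IDH3G, TDRD1 and MAGEC1 were the named list genes that lost their call under at least 1 alternative. Shares and ratios of FPKM were the same as TPM by construction. With 3 libraries a group, the 95% interval of DNMT3B includes a change as large as that of DNMT1, and that of TET1 one as large as that of TET3.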
